A study of Mus musculus with 18 samples.

Results

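The genes described here belong to the bone morphogenetic protein (BMP) pathway or are its Id targets: Bmp4, Bmpr1a, Smad1, Smad4, Smad5, Smad6, Smad7, Id1, Id2 and Id3. Every probe set whose chip annotation gives one of these names as its only gene symbol was taken. This gave 20 probe sets for the 10 genes, out of 36701 probe sets tested and 15964 named genes. Of the 20, 12 are on the chip U74Av2, 5 on U74Bv2 and 3 on U74Cv2. Smad6, Smad7 and the 3 Id genes have 1 probe set each, all on U74Av2, and Bmpr1a has the most, with 5.

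Expression was profiled in mouse embryonic stem (ES) cells of the inbred strain FVB/N. One group was wild-type (WT) cells grown with leukaemia inhibitory factor (LIF). The other was a transgenic line of the same strain, which carries STAT3-MER, was given 4-hydroxytamoxifen (OHT) and had no LIF. STAT3-MER joins the coding region of mouse STAT3 to a modified ligand-binding domain of the estrogen receptor, which OHT activates, and a chicken β-actin promoter, expected to be active in all tissues, drives it. Transgene, culture supplement and cell line therefore differ together between the groups and cannot be told apart. Each group is 1 cell line grown in 3 separate dishes, so the spread given here is that between dishes of a line and not between lines. Both lines were established on growth-arrested embryonic fibroblasts as feeder cells. 

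BMP ligands bind a pair of receptors, a type I and a type II serine/threonine kinase. The type I receptor phosphorylates the receptor-regulated Smad1 and Smad5, which join the common partner Smad4 and enter the nucleus. Smad6 and Smad7 are inhibitory Smads, induced by the pathway and acting back on it. The Id proteins lack a DNA-binding region and hold basic helix-loop-helix factors in inactive pairs, and their genes are classical BMP targets. In mouse ES cells, BMP4 together with LIF is known to sustain self-renewal in medium without serum, with Id proteins acting beside STAT3.

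Promoters of 7 of the 10 genes were matched by symbol in RefSeq windows of build GRCm38.p6, each 300 bases long with 250 bases before the transcript start and 50 after it. Id1, Smad4 and Smad7 had no match. The windows were searched on both strands for 3 motifs: TTCNNNGAA, which STAT proteins bind, the GC-rich Smad motif GGCGCC, and the Smad palindrome GTCTAGAC. Id2 and Id3 are shown because their signals followed different dishes, and Smad6 because it holds the rarest of the motifs. Capitals mark a motif, the sequences run 5′ to 3′ on the strand of the gene, and those of Id2 and Id3 end just before the transcript start.
Id2, chr12:25096093-25096342, minus strand: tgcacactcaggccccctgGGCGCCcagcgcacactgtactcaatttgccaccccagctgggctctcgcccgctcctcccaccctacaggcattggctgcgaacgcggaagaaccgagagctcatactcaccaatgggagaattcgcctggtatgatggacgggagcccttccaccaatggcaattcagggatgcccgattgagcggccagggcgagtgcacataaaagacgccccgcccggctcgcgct
Id3, chr4:136143572-136143821, plus strand: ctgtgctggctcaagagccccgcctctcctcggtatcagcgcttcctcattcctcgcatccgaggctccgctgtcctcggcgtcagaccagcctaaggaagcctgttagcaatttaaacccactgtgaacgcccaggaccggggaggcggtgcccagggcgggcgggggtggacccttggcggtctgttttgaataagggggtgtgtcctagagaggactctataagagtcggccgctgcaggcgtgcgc
Smad6, chr9:64022056-64022309, minus strand: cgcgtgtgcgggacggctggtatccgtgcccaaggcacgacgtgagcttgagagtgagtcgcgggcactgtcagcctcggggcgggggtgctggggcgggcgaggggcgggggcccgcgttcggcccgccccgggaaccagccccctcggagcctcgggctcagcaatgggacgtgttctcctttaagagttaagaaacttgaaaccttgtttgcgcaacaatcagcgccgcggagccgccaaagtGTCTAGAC

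The GC-rich Smad motif began 231 bases before the start in Id2 and 198 bases before it in Bmpr1a, and it also lay in windows of Smad5. The palindrome began 4 bases before the start of Smad6 and reaches past it. It was found in 0.213% of all 32851 promoter windows of the table, against 11.9% for the GC-rich motif and 8.3% for the STAT motif. No member window held the letters of the STAT motif, the Id3 window held none of the 3 motifs, and no window held more than 1 kind. A match or its absence says only whether these letters are in the window.

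The values are linear signal intensities in arbitrary units, already scaled to a common level, with trimmed means per array of 500.1 to 500.3. No detection call was given, so whether a dim probe set is above background is unknown. Signals of different probe sets are on different scales, so the levels of different genes are not compared. A sum over markers follows its brightest probe sets most. The number of arrays, 3 per group and chip, limits the precision, and an exact two-sided permutation test of 3 against 3 dishes cannot give a p below 0.1. Replicate numbers are those of the labels, except that 1 U74Av2 array of STAT3-MER cells has none and is called STAT3-MER 2. Across 183 genes with a mean signal of at least 500 on both chips, WT 1 of U74Av2 correlated with WT 1 of U74Bv2 at r = -0.436 and with WT 2 of U74Bv2 at r = 0.429, in deviations from the WT mean. Genes are not independent replicates. Since a number may thus not mean the same WT dish on each chip, the values are described within each chip.

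On U74Av2 the arrays also fell into pairs that cross the groups. Deviations from the group mean correlated at r = 0.459 between WT 1 and STAT3-MER 2 and at r = 0.413 between WT 2 and STAT3-MER 1, across 12422 probe sets. Several of the genes below follow these pairs. The ES cell markers Pou5f1, Nanog and Sox2 were bright on all 6 arrays, Sox2 on a probe set with the suffix _r_at, which is explained with Bmp4 below. Esrrb, another of the 9 ES cell markers listed, was dim, at 12.9 to 80.4. Pou5f1 averaged 4345 ± 1934 in WT and 6148 ± 2416 in STAT3-MER dishes, and those of Nanog were 9602 ± 3973 and 10107 ± 1499 (SD, n = 3 each). The markers of feeder fibroblasts were present too: the summed signal of 25 of them measured on U74Av2 was 56626, 25653 and 59542 in WT 1 to 3 and 15379, 64320 and 49027 in STAT3-MER 1 to 3. In such bulk samples, fewer cells of a type and less RNA per cell cannot be told apart.

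No BMP, Smad or Id probe set differed between the groups after adjustment over all probe sets. Of the 20, 0 were called by limma at an adjusted p under 0.05, and every adjusted p was 1.0. Among all 36701 probe sets, 1 was called, which is 0.00272%. At an unadjusted p under 0.05 there was 1 of the 20 (Smad4, 166540_at), against 3.45% of all probe sets. The 3 dishes of one group lay entirely above the 3 of the other for 3 of the 20, Smad7 in one direction and a probe set each of Smad1 and Smad4 in the other, against 8.13% of all. By the criteria of the study's methods (a ratio of means over 1.5, a difference over 100 and p under 0.1 in the methods' t-test), 1 of 20 was selected, again Smad4 166540_at, against 1.98% of all. Read against these shares, the counts do not set the genes apart.

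**Figure D1:**
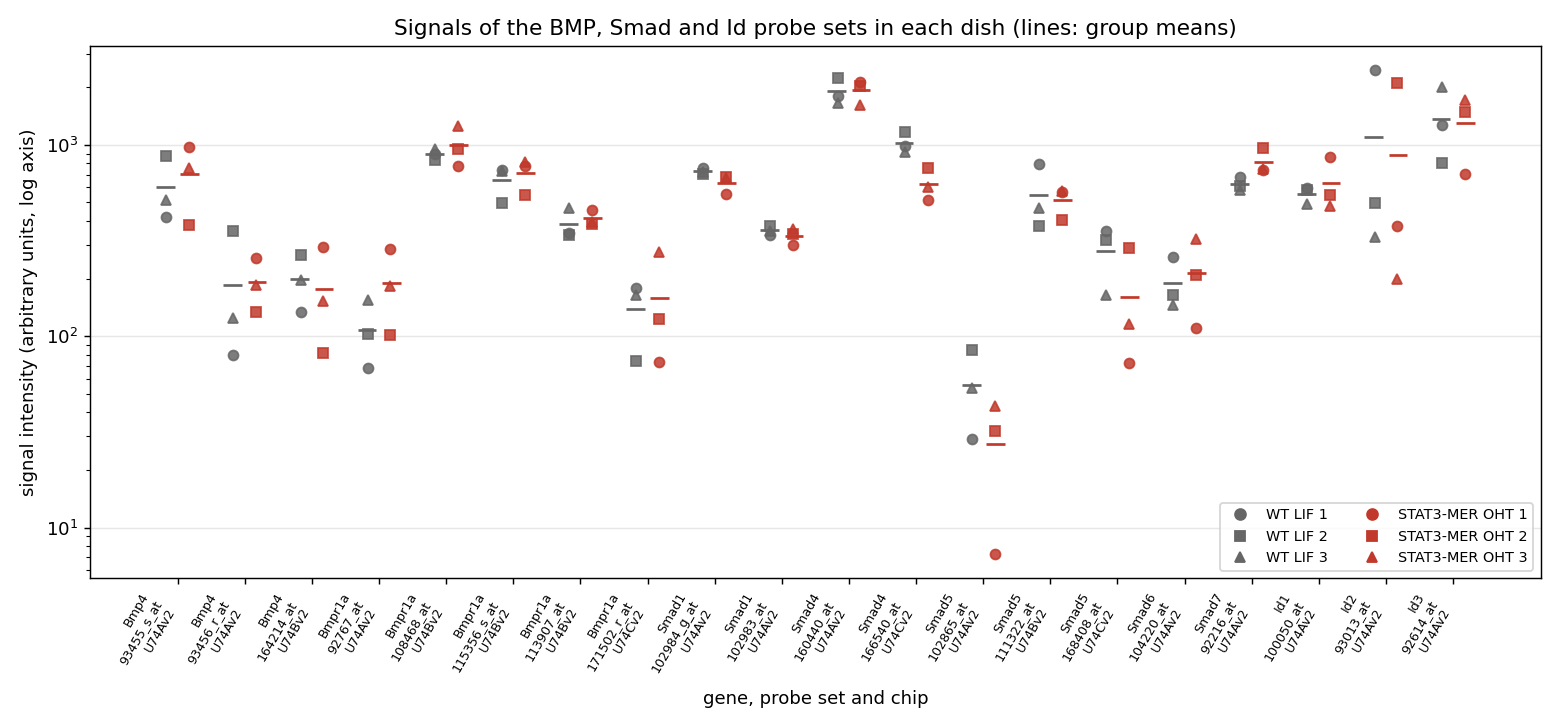
Signal intensity (arbitrary units, log axis) of the 20 probe sets, 1 column each, in WT LIF dishes (grey) and STAT3-MER OHT dishes (red), with symbols for the replicate number and lines for the group means. Most columns overlap between the groups, and Id2 shows 1 dish of each group far above the rest, at 2459 and 2096.

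Bmp4, the ligand, was measured by 3 probe sets. Signals of 93455_s_at on U74Av2 were 420, 874 and 515 in WT 1 to 3 and 979, 381 and 762 in STAT3-MER 1 to 3. Those of 93456_r_at on the same arrays were 79.4, 354 and 124 in WT cells and 255, 134 and 184 in STAT3-MER cells. In both probe sets WT 2 and STAT3-MER 1 were the highest arrays, and the groups overlapped. WT 2 and STAT3-MER 1 lay above the other 4 arrays in 10.9% of the 7114 U74Av2 probe sets with a mean signal of at least 100. These are also the arrays with the lowest feeder fibroblast sums given above, and their part in the Bmp4 values was not tested. On U74Bv2, 164214_at read 133, 266 and 196 in WT cells and 293, 81.3 and 154 in STAT3-MER cells. The log2 fold changes, STAT3-MER OHT over WT LIF on the log2(signal + 32) scale, were 0.19 ± 0.39, 0.21 ± 0.48 and -0.24 ± 0.50 (SE, n = 3 dishes each) for the probe sets in this order. The sign thus differed between probe sets of the gene, and each difference was smaller than its standard error. The suffixes _s_at, _r_at and _g_at are the manufacturer's marks for probe sets that may pick up other transcripts or were designed under looser rules.

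Bmpr1a, the type I receptor for BMP4, was measured by 5 probe sets. On U74Bv2, 108468_at had signals of 893, 832 and 953 in WT dishes and 776, 955 and 1258 in STAT3-MER dishes. On the same chip 115356_s_at read 739, 499.9 and 732 against 773, 548 and 819, and 113907_at read 348, 336 and 470 against 459, 386 and 395. In these 3 probe sets the groups overlapped and the log2 fold changes were 0.13 ± 0.25, 0.11 ± 0.28 and 0.11 ± 0.30. The narrowest of the 3 confidence intervals, that of 108468_at, ran from -0.43 to 0.69. On U74Av2, 92767_at read 68.0, 102 and 154 in WT cells and 287, 102 and 184 in STAT3-MER cells. Its ratio of means was 1.76 and its log2 fold change 0.63 ± 0.40 (limma, unadjusted p = 0.156, adjusted p = 1.0). That value was 0.32 without STAT3-MER 1, its highest array, and 0.95 without STAT3-MER 2. The fifth probe set, 171502_r_at on U74Cv2, ranged from 73.6 to 276 over the 6 dishes with a log2 fold change of 0.07 ± 0.56, which turned to -0.03 under quantile normalization.

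Among the receptor-regulated Smads, Smad1 was the steadiest of all the genes from dish to dish. Signals of 102984_g_at were 758, 707 and 723 in WT cells and 555, 678 and 668 in STAT3-MER cells. All 3 STAT3-MER dishes lay below all 3 WT dishes, the closest pair being 707 and 678. The means were 729 ± 25.8 and 634 ± 68.2 (SD, n = 3 each), and the log2 fold change was -0.20 ± 0.18, with a 95% confidence interval from -0.62 to 0.23. It was -0.111 without STAT3-MER 1, its lowest dish, and lay below 0 whichever dish was left out. The partner probe set 102983_at read 339, 379 and 354 against 299, 341 and 363, so its groups overlapped, and its log2 fold change was -0.09 ± 0.21. The pooled SD between dishes of a group, on the log2 scale, was 0.113 for 102984_g_at and 0.105 for 102983_at. Only 3.3% and 2.5% of the U74Av2 probe sets with a mean signal of at least 100 had a smaller one.

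Smad5, which like Smad1 is activated by BMP receptors, had 3 probe sets with estimates below 0 and overlapping groups. On U74Bv2, 111322_at read 795, 379 and 471 in WT dishes and 570.2, 406 and 572 in STAT3-MER dishes. Its log2 fold change was -0.03 ± 0.33. On U74Cv2, 168408_at read 353, 319 and 164 against 72.3, 290.2 and 116. Its log2 fold change of -0.81 ± 0.55 had an interval from -2.05 to 0.44, and the value was -0.451 without STAT3-MER 1 and -1.265 without STAT3-MER 2. On U74Av2, 102865_at read from 7.3 to 84.7 over the 6 dishes with a mean of 41.7. Its log2 fold change of -0.57 ± 0.33 depended on the pseudocount, with -0.921 at 8 and -0.285 at 100, and was -0.291 without STAT3-MER 1. The estimate for 111322_at was 0.25 without WT 1 and 0.12 without STAT3-MER 2, while the other probe sets kept their sign whichever dish was left out.

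Smad4, the common partner of the receptor-regulated Smads, gave different values on its 2 probe sets. On U74Cv2, 166540_at read 986, 1167 and 922 in WT cells and 517, 758 and 599 in STAT3-MER cells. All 3 STAT3-MER dishes lay below all 3 WT dishes, with a gap from 758 to 922. The means were 1025 ± 127 and 625 ± 122 (SD, n = 3 each), a WT to STAT3-MER ratio of 1.64. The log2 fold change was -0.70 ± 0.28, with a 95% confidence interval from -1.33 to -0.07 (limma, unadjusted p = 0.0335, adjusted p = 1.0). It lay between -0.84 and -0.57 whichever dish was left out. On U74Av2, 160440_at read 1798, 2246 and 1665 against 2140, 2041 and 1607. Here the groups overlapped, the means were 1903 ± 304 and 1929 ± 283, and the log2 fold change was 0.02 ± 0.20 with an interval from -0.44 to 0.48. The probe sets lie on different chips, and the difference between them was not tested.

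The inhibitory Smads were each measured once, on U74Av2. Smad7 (92216_at), which blocks receptors and marks them for degradation, read 680.1, 611 and 579 in WT 1 to 3 and 738, 961 and 746 in STAT3-MER 1 to 3. Every STAT3-MER dish lay above every WT dish, with the closest pair at 738 and 680.1. The means were 623 ± 51.8 and 815 ± 126 (SD, n = 3 each), a ratio of 1.31. The log2 fold change was 0.36 ± 0.20 with an interval from -0.09 to 0.81 (limma, unadjusted p = 0.1, adjusted p = 1.0), and it lay between 0.24 and 0.43 whichever dish was left out. Smad6 (104220_at), which competes with Smad4 for activated Smad1, read 259.9, 163 and 146 against 110.4, 210.0 and 320.3. Its highest and its lowest dish both came from the STAT3-MER group, and its log2 fold change was 0.09 ± 0.39. The value was -0.22 without STAT3-MER 3 and 0.43 without STAT3-MER 1.

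The Id genes, each with 1 probe set on U74Av2, had no common pattern. Id1 (100050_at) read 592, 583 and 492 in WT cells and 862, 548 and 477 in STAT3-MER cells. One STAT3-MER dish lay above all others and another below all others. The means were 555 ± 55.4 and 629 ± 205 (SD, n = 3 each) and the log2 fold change was 0.13 ± 0.25, or -0.11 without STAT3-MER 1.

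Id2 (93013_at) varied more between dishes than any other member. Its signals were 2459, 497 and 328 in WT 1 to 3 and 376, 2096 and 199 in STAT3-MER 1 to 3. One dish of each group, WT 1 and STAT3-MER 2, stood far above the other 4, which lay together between 199 and 497. The lower of these high dishes was 4.22 times the highest of the rest, and the highest dish was 12.3 times the lowest. The group means, 1095 ± 1185 and 891 ± 1048 (SD, n = 3 each), differed by less than either SD. The log2 fold change of -0.41 ± 0.92 had an interval from -2.52 to 1.70, and it was -1.34 without STAT3-MER 2 and 0.42 without WT 1. This fit compares the groups without pairing the dishes. Within the pairs of arrays that cross the groups, the STAT3-MER array was the lower one each time. The signals were 2459 and 2096 in WT 1 and STAT3-MER 2, 497 and 376 in WT 2 and STAT3-MER 1, and 328 and 199 in WT 3 and STAT3-MER 3 (r = 0.287 for the last pair). These pairs come from the data and not from the labels, and no fit with them was run. One sign in every pair was not particular to Id2. Smad1 102984_g_at was also lower in the STAT3-MER array of each pair, and Smad7 and Bmpr1a 92767_at were higher. The share of all probe sets with one sign in every pair was not counted, so this order does not show a decrease of Id2.

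The pooled SD of Id2 between dishes of a group was 1.57 on the log2 scale, and 20 of the 7114 U74Av2 probe sets with a mean signal of at least 100 had a larger one. The median of these probe sets was 0.318. WT 1 and STAT3-MER 2 were the highest arrays in 18.0% of them, so the order itself was common. A gap of at least 4-fold, a size chosen after the Id2 values were seen, was found in 3 of them (0.0422%): Id2, Mylk, which encodes myosin light chain kinase, and Stard10, which encodes a lipid transfer protein. Mylk read 1087, 256 and 241 in WT cells and 157, 1052 and 239 in STAT3-MER cells. Stard10 read 366, 43.2 and 42.7 against 31.8, 196 and 48.9.

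**Figure D2:**
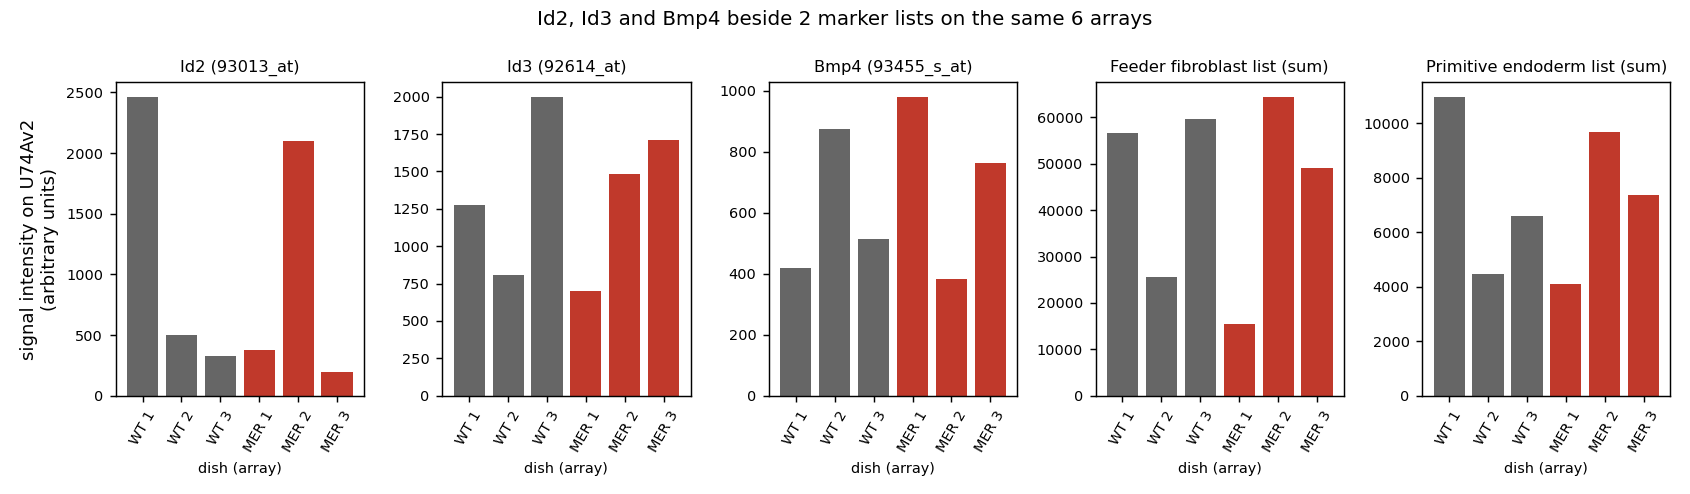
Signal intensity (arbitrary units) of Id2, Id3 and Bmp4 and the summed signal of 2 marker lists on the 6 U74Av2 arrays, with WT LIF dishes in grey and STAT3-MER OHT dishes (MER) in red, and each bar 1 array. Id2 is high in WT 1 and STAT3-MER 2, Bmp4 is high and Id3 low in WT 2 and STAT3-MER 1, and the fibroblast sum is lowest in the latter pair, at 25653 and 15379.

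Id3 (92614_at) followed the other pair of arrays. Its signals were 1276, 808 and 1997 in WT 1 to 3 and 701, 1484 and 1713 in STAT3-MER 1 to 3, so WT 2 and STAT3-MER 1 were the lowest. The means were 1360.0 ± 599 and 1299 ± 531 (SD, n = 3 each), and the log2 fold change was -0.07 ± 0.41, with 0.25 without WT 3 and 0.32 without STAT3-MER 1. WT 2 and STAT3-MER 1 were the lowest arrays in 12.9% of the U74Av2 probe sets with a mean signal of at least 100.

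The fibroblast list and part of the primitive endoderm list moved with the same pairs of arrays. Of the 25 fibroblast markers, 16 were lowest in WT 2 and STAT3-MER 1, as Id3 was, among them Col1a2 with 9561, 4149 and 9352 in WT 1 to 3 and 1978, 12564 and 8411 in STAT3-MER 1 to 3. Of the 10 primitive endoderm markers, 5 were highest in WT 1 and STAT3-MER 2, as Id2 was. On the same list 4 were lowest in WT 2 and STAT3-MER 1, as Id3 was. The 10 summed to 10952, 4482 and 6586 in WT cells and to 4106, 9677 and 7349 in STAT3-MER cells, lowest in the latter pair. Sparc, Col4a1 and Col4a2 made up much of these sums, with 2487, 3424 and 2194 in WT 1, and Sparc is also on the fibroblast list. Sox17 read 454, 116 and 63.3 against 175.5, 174.3 and 175.3, and Foxa2 120, 38.2 and 30.1 against 28.6, 23.7 and 38.9. Both were highest in WT 1, but STAT3-MER 2 was their lowest STAT3-MER dish. Gata4, a defining factor of primitive endoderm, read 610.3, 245 and 234 against 386, 530 and 184, and Gata6, with the same pair of arrays highest, ranged only from 52.2 to 89.7. The same order was seen outside the endoderm list: 7 of the 25 fibroblast markers and 3 of the 9 ES cell markers (Nanog, Sox2 and Fgf4) were also highest in WT 1 and STAT3-MER 2, while the ES cell markers Utf1 and Pou5f1 were lowest there. The 9 ES cell markers summed to between 55135 and 81634, with WT 1 the highest array, where Dppa5a alone read 43340. The 5 mesoderm markers summed to 207, 252 and 155 in WT cells and to 229, 338 and 254 in STAT3-MER cells. For the 7 trophectoderm markers the sums were 1932, 1258 and 836 against 1302, 807 and 602. For the 5 neural markers they were 825, 1108 and 1144 against 904, 862 and 1193. In each of these 3 lists 0 markers were highest in WT 1 and STAT3-MER 2. In the same order of lists, 2, 1 and 1 were lowest in WT 2 and STAT3-MER 1. Across the lists 0 markers were called between the groups by limma, 0 had an unadjusted p under 0.05 and 0 met the methods' criteria. The part of these cell types in the Id2, Id3 and Bmp4 values was not tested.

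**Figure D3:**
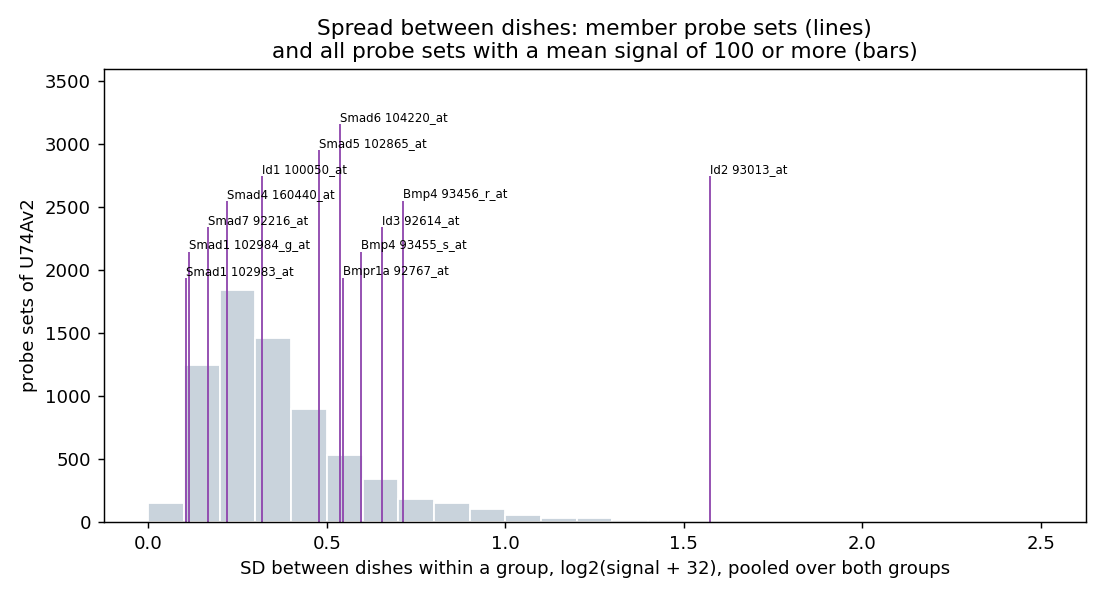
Pooled SD between dishes of a group on the log2(signal + 32) scale: bars count the 7114 U74Av2 probe sets with a mean signal of at least 100, and lines mark the 12 member probe sets of that chip at their own SD, with heights staggered for the labels only (Smad5 102865_at has a mean below 100 and is not among the bars). Smad1 lies at the low end, at 0.105 and 0.113, and Id2 at 1.57, far beyond the other members.

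Over the 10 genes, with 1 probe set per gene, the median log2 fold change was -0.007, and 5 genes had a positive and 5 a negative estimate. On leaving out the arrays of 1 label on all chips, this median ran from -0.08 (without STAT3-MER 3) to 0.153 (without WT 1). The genes lie on different chips, where a label may not mean the same dish. Over all 15964 genes the median was 0.004. The median size of the change, without its sign, was 0.109 for the members and 0.196 for all genes. The choice of 1 probe set per gene left out the largest member estimates, -0.81 (Smad5 168408_at), -0.70 (Smad4 166540_at) and 0.63 (Bmpr1a 92767_at). These medians therefore do not show that the members changed less than other genes. Over all 20 probe sets, 11 estimates were positive and 9 negative. The absence of calls does not show that the levels were equal.

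**Figure D4:**
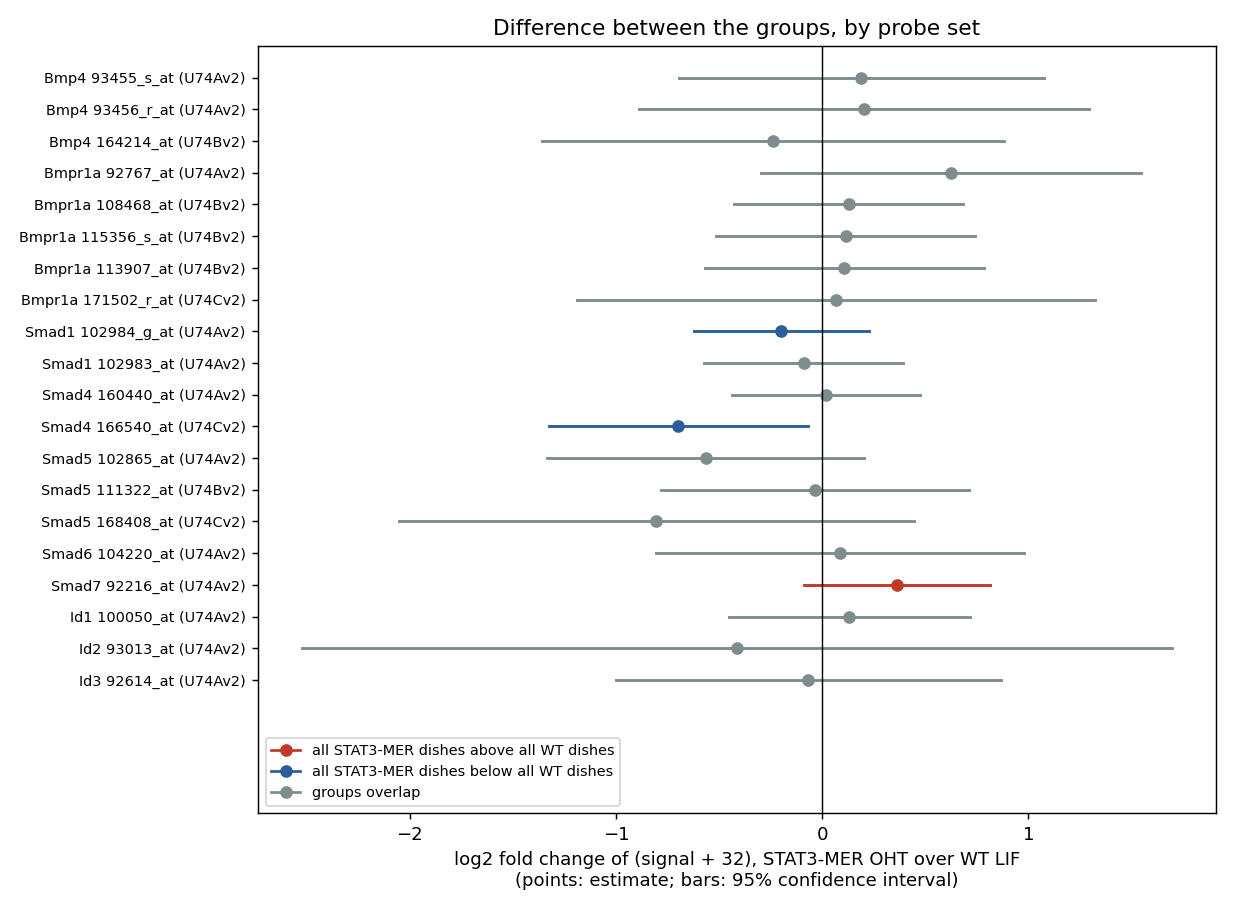
Log2 fold change of each of the 20 probe sets, STAT3-MER OHT over WT LIF on the log2(signal + 32) scale, with points for the estimate and bars for its 95% confidence interval. The interval of Smad4 166540_at, from -1.33 to -0.07, is the only one that leaves out 0, and that of Id2 is the widest.

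The rest of the pathway and genes linked to it were read from a list of 62 other genes, of which 54 had a probe set with that name alone. Of these 54, 0 were called by limma, 0 had an unadjusted p under 0.05 and 0 met the methods' criteria. The groups did not overlap for 1 of them, against 8.13% of all probe sets, and the median log2 fold change was -0.006. That gene was Bmp8b, a ligand, with dim signals of 26.0, 26.7 and 10.7 in WT dishes and 9.6, 9.7 and 9.9 in the others, and a log2 fold change of -0.33 ± 0.17. The median log2 fold change was -0.15 over the 10 other ligands, -0.08 over the 9 other receptors and 0.04 over the 9 antagonists. Over the other 3 Smads listed, which are Smad2, Smad3 and Smad9, it was 0.14. It was -0.01 over the 11 regulators such as the Smurf ubiquitin ligases, and -0.01 over the 12 further targets and Id partners. Single estimates ran from -0.78 for Hey1, a transcriptional repressor and BMP target, to 0.66 for Acvrl1, a type I receptor, and neither passed the test. Id4, the remaining Id gene, read 273, 116 and 148 in WT cells and 136, 250 and 159 in STAT3-MER cells. It was highest in the same arrays as Id2, but without a wide gap to the others, at 250 against 159. That order was found in 18.0% of the U74Av2 probe sets with a mean signal of at least 100. Other genes of the list had it too, Hey1 among them, so it is not particular to the Id genes.

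**Figure D5:**
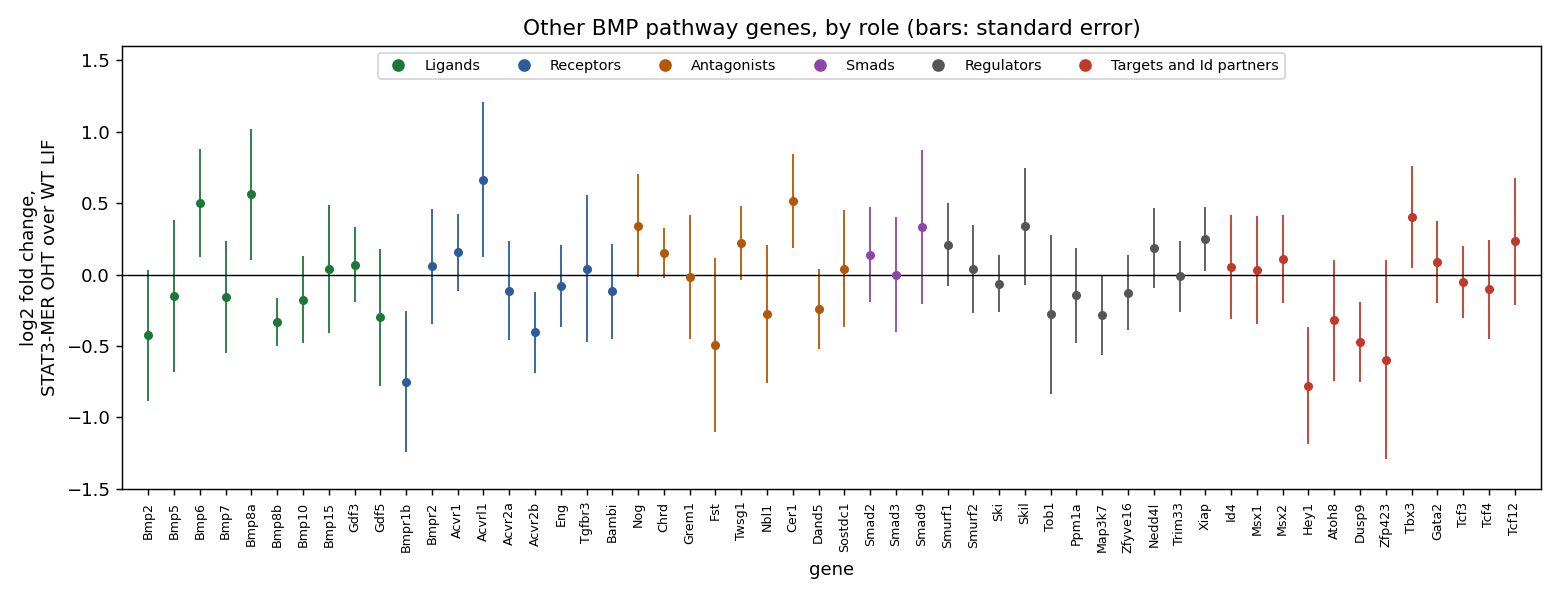
Log2 fold change, STAT3-MER OHT over WT LIF on the log2(signal + 32) scale, of the 54 other pathway genes, coloured by role, with bars for the standard error. The points scatter on both sides of 0 in every role but the Smads, between -0.78 and 0.66, and 0 passed the test.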

How the data were processed

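The authors amplified the RNA of each dish in 2 rounds, hybridized it to Affymetrix U74Av2, U74Bv2 and U74Cv2 chips (18 arrays) and deposited 1 linear signal intensity per probe set and array, with no detection call. MAS5 is the tool in the submitters' processing notes, given without a version. The study's own comparisons used another model of the arrays, and those values were not used here. One array, labelled as different chips in its title and description, was taken as U74Cv2, whose probe sets it holds.

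Each array was scaled to the mean trimmed mean of its chip (trimmed by 2% at either end), and log2(signal + 32) was compared with limma 3.58.1 in R 4.3.3 (lmFit, eBayes with a trend, two-sided, 1 fit per chip, 3 dishes a group). No dim probe set was left out. P-values were adjusted by Benjamini-Hochberg over 36701 probe sets, after leaving out 198 control probe sets, with a threshold of 0.05. The fit was tested on data simulated with the means and spread of these arrays. The simulated arrays varied independently, without the deviations that the real U74Av2 arrays shared across the groups. It called 1 of 67 probe sets with a true log2 change of 1, 25 of 67 with 2 and 58 of 66 with 4. Of 36501 unchanged probe sets it called 3. In such simulated data a change of 1 on the log2 scale thus mostly went uncalled. Of the 36701, 29131 carry 1 gene symbol, 724 several and 6846 none, and 29044 matched a RefSeq gene. For values per gene, 1 probe set was used, without a cross-hybridization suffix where possible and then the brightest. The study's methods name a t-test without stating how variances were treated. Here it was run on the deposited signals, allowing unequal variances.

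The genes and lists were chosen with earlier results of these data known. All members were named, and from the pathway list the rule named genes past the threshold, or else up to 2 per role with groups that did not overlap. Hey1, Acvrl1, Id4, Mylk and Stard10 were named after their values were seen. Smad2, Smad3 and Smad9 were named because they make up their role. Alternatives covered scaling, pseudocount (8, 100), a minimum mean signal of 100, the variance model, the adjustment, a replicate block, leaving out each dish, and the methods' criteria. Tables were handled in Python 3.11.15 with pandas 2.3.3, numpy 2.4.6 and scipy 1.17.1, and figures drawn with matplotlib 3.10.9.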

Additional observations from a re-analysis of the deposited data

How the results depend on the processing

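No member probe set was called under any of the 10 other settings or the 6 fits that leave out a dish. Each of these 6 leaves out the arrays of 1 label on all chips, which may not be the same dish. The smallest adjusted p in any of them was 0.964. The methods' criteria selected 1 member and 725 of all probe sets, against 0 and 1 by limma, and the methods' t-test after Benjamini-Hochberg called 0 of either. All called probe sets numbered 1 to 2 when a dish was left out, with 2 without WT replicate 3. Of 319 member comparisons 22 changed sign, 21 of them on leaving out a dish, over 12 probe sets, and 1 under quantile normalization (Bmpr1a 171502_r_at, -0.033). The log2 fold changes on leaving out a dish ran from -0.085 to 0.56 (Bmp4 93455_s_at), -0.175 to 0.721 (93456_r_at), -0.627 to 0.134 (164214_at), -0.049 to 0.289 (Bmpr1a 108468_at), -0.063 to 0.285 (115356_s_at), -0.356 to 0.417 (171502_r_at), -0.069 to 0.144 (Smad4 160440_at), -0.251 to 0.254 (Smad5 111322_at), -0.222 to 0.432 (Smad6), -0.108 to 0.298 (Id1), -1.344 to 0.424 (Id2) and -0.386 to 0.317 (Id3). The other 8 probe sets kept their sign in all settings. The minimum mean signal left out Smad5 102865_at and kept 19. Total signal scaling was added after the data were seen. The cause of these changes was not tested.

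Replicate numbers do not pair the dishes in the labels, and same-numbered arrays deviated together at r = -0.295, -0.335 and 0.287 on U74Av2 and at 0.07 to 0.211 on the other chips, where every array correlated best with its own number, a hint from the data and not the design. With the replicate block, 0 members and 1 of all probe sets were called, and the adjusted p was 0.999 for every member, Smad4 166540_at included (log2 fold change -0.697). The block joins arrays of the same number. On U74Av2 it therefore does not follow the pairs that cross the groups, and it cannot stand for a paired comparison there.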
